A study of Homo sapiens with 24 samples.

Results

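The comparison described here set HEK293A cells labelled LATS1/2-dKO against WT cells, both on a stiff matrix of 40 kPa. HEK293A cells descend from human embryonic kidney and grow attached. The 6 libraries, 3 of LATS1/2-dKO and 3 of WT, were chosen by genotype and stiffness from the labels, out of 24 libraries in the whole series. Of the genes in the deposited tables, 14248 reached 1 FPKM in 3 or more of these 6 libraries and were tested. FPKM counts fragments per kilobase of transcript, scaled to the size of the library, so levels can be compared between genes.

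The series asked how gene expression responds to the stiffness of the matrix, in cells with and without members of the Hippo pathway and of the RAP2 family of small GTPases. Lines labelled LATS1/2-dKO, YAP/TAZ-dKO and RAP2A/B/C-tKO (RAP2-tKO below) and WT cells were crossed with soft (1 kPa) and stiff (40 kPa) hydrogels, 3 libraries in each of 8 groups. LATS1/2-dKO cells are labelled as lacking LATS1 and LATS2, and WT cells carry no labelled alteration. Both had been seeded on fibronectin-coated hydrogels, in DMEM with 10% FBS and antibiotics, with no other treatment. The sources used here do not say how the line was edited or whether it is 1 clone, so the effect of the genotype and that of the line cannot be told apart.

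LATS1 and LATS2 are the last kinases of the Hippo pathway. They phosphorylate the coactivators YAP (gene YAP1) and TAZ (gene WWTR1), which are then held in the cytoplasm or degraded. Unphosphorylated YAP and TAZ enter the nucleus and bind TEAD factors, which recognise a short DNA motif near genes of growth, cytoskeleton and matrix. On a stiff matrix YAP and TAZ are known to be largely nuclear in cultured cells, and on a soft one largely cytoplasmic.

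The depth of the 6 libraries, estimated from the deposited confidence intervals, lay between 19.29 and 42.11 M fragments, and each detected 13938 to 14183 genes at 1 FPKM or more. LATS1/2-dKO replicate 1 was the shallowest and stood apart: relative to the LATS1/2-dKO mean on 1 kPa, its deviations across genes had a rank correlation of -0.606 with the GC content of the genes. In the other 5 libraries, each set against its own genotype on 1 kPa, this correlation lay between -0.045 and 0.163. The SD across genes of the log2 difference between replicates was 0.475 to 0.635 among LATS1/2-dKO libraries and 0.39 to 0.417 among WT libraries. Counts of most gene lists are therefore also given without this library. Endothelial and immune markers were low: the endothelial markers CLDN5, EMCN and ROBO4 and the immune marker PTPRC were listed at 0 in all 6 libraries, and of 12 immune markers 1 (CD68) reached 1 FPKM in a group mean. Fibroblast and neuronal markers, some of which these cells express, are given with the results. Summed over 10 markers of HEK293 and kidney cells, among them KRT8, KRT18 and VIM, the level was 1150 to 1200 FPKM in LATS1/2-dKO libraries and 721 to 750 FPKM in WT libraries.

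On the stiff gel 3468 genes (24.3% of those tested) differed between LATS1/2-dKO and WT cells at an adjusted p below 0.05 in limma. Of these, 1642 (11.5% of those tested) were higher and 1826 (12.8%) were lower in LATS1/2-dKO cells, and the median log2 change over all tested genes was -0.01. Most of the differences were small: 218 genes (1.53%) were called and changed at least 2-fold, 136 higher and 82 lower. Without LATS1/2-dKO replicate 1, 3022 genes (21.2%) were called, 1366 (9.59%) higher and 1656 (11.6%) lower. Of the 3468 calls, 2555 (73.7%) were made again, none changed direction, and 208 of the 218 genes with a change of 2-fold or more were still called. When the 6 libraries were fitted alone, without the spread of the other 18, 1426 genes (10.0%) were called, 693 (4.86%) higher and 733 (5.14%) lower, with 198 of the 218 among them. The libraries of the groups did not overlap in 5260 genes (36.9%).

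The share of higher and lower calls moved with GC content. Among the 3516 genes with the lowest GC content (up to 41.9%) 647 rose and 193 fell, and without LATS1/2-dKO replicate 1 the counts were 427 and 270. Among the 3516 with the highest (from 55.8%) 160 rose and 534 fell, and without that library 246 and 347. With a GC correction in the fit 4085 genes were called, 1977 higher and 2108 lower, and among 186 named genes tested 10 lost a call and 4 gained one.

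The targeted genes were examined first. LATS1 (ENSG00000131023.12, hg19 chr6:149979289-150039392) had 5.41, 6.001 and 5.66 FPKM in LATS1/2-dKO cells, against 12.1, 12.3 and 12.4 FPKM in WT cells. All LATS1/2-dKO libraries lay below all WT libraries, and the log2 change of FPKM + 1, the scale of every change given here, was -0.99 ± 0.08 (SE; limma adjusted p = 2.44e-08). LATS2 (ENSG00000150457.8, chr13:21547171-21635686) had 2.49, 3.84 and 3.88 FPKM in LATS1/2-dKO cells, against 2.69, 2.09 and 3.56 FPKM in WT cells. Its groups overlapped, and the change of 0.22 ± 0.20 did not pass the test (limma adjusted p = 0.462). An RNA level does not tell whether a protein is made, and the position of the edits is not stated, so the LATS2 level does not check the label. The effectors did not pass the test: YAP1 averaged 32.8 ± 3.0 FPKM in LATS1/2-dKO and 31.6 ± 0.6 FPKM in WT cells (adjusted p = 0.689), and WWTR1 21.9 ± 1.8 and 26.3 ± 0.7 FPKM (adjusted p = 0.0871). Values with ± after an FPKM are means with their SD over 3 libraries per group.

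Many genes that YAP, TAZ and TEAD are known to activate were higher in LATS1/2-dKO cells. Of 22 signature genes 19 were tested, and 13 rose (68.4%, beside 11.5% of all genes) and 1 fell (5.26%, beside 12.8%). Their median log2 change was 0.60, beside -0.01 over all genes. Without LATS1/2-dKO replicate 1, 14 rose, 1 fell and the median was 0.67. In the 6 libraries fitted alone 9 rose and none fell. IGFBP3 and TGFB2 passed the filter only through the LATS1/2-dKO libraries, so a rise was the only direction open to them. A loss of signal in bulk RNA cannot tell fewer expressing cells from less RNA per cell, and the same holds for a gain.

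ANKRD1, an ankyrin repeat protein of striated muscle (ENSG00000148677.6, chr10:92671853-92681033), had 58.0, 45.8 and 49.7 FPKM in LATS1/2-dKO cells, against 4.06, 3.94 and 4.05 FPKM in WT cells. Its rise of 3.37 ± 0.10 on the log2 scale (adjusted p = 1.21e-14) was the largest of the genes named by the rule in the methods. CYR61 (ENSG00000142871.15, chr1:86046444-86049645), a secreted matricellular protein of the CCN family, had 115, 155.6 and 145.8 FPKM in LATS1/2-dKO cells, against 29.1, 33.0 and 29.4 FPKM in WT cells, a rise of 2.14 ± 0.09 (adjusted p = 1.76e-12). CTGF (ENSG00000118523.5, chr6:132269316-132272513), its close relative, had 77.8, 84.1 and 83.0 FPKM in LATS1/2-dKO cells, against 22.5, 23.4 and 21.7 FPKM in WT cells, a rise of 1.81 ± 0.05 (adjusted p = 1.89e-14). In all of these genes the groups lay far apart. The other CCN members were below the filter: NOV averaged 0.58 FPKM in LATS1/2-dKO and 0.34 FPKM in WT cells, and no group mean of WISP1, WISP2 or WISP3 on 40 kPa passed 0.14 FPKM.

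AMOTL2, an angiomotin that binds YAP (ENSG00000114019.14, chr3:134074716-134094321), had 50.5, 81.6 and 73.9 FPKM in LATS1/2-dKO cells, against 25.04, 27.5 and 23.6 FPKM in WT cells, a rise of 1.38 ± 0.19 (adjusted p = 2.92e-05). Its lowest LATS1/2-dKO value was that of replicate 1. TGFB2, a ligand of the TGF-beta family, had 2.88, 3.64 and 3.22 FPKM in LATS1/2-dKO cells, against 0.83, 0.59 and 0.40 FPKM in WT cells, a rise of 1.41 ± 0.16. IGFBP3, which binds insulin-like growth factors, averaged 1.73 ± 0.26 FPKM in LATS1/2-dKO and 0.37 ± 0.10 FPKM in WT cells. The membrane protein CRIM1 (change 0.93), myoferlin (MYOF, 0.82), the secreted protein CCDC80 (0.62), the phosphatase PTPN14 (0.59), which binds YAP, the stress gene GADD45A (0.39) and FJX1 (0.30) rose by less. Tissue factor (F3) rose by 0.47, with groups that overlapped, and its call was lost without LATS1/2-dKO replicate 1 (adjusted p = 0.0823). FOXF2, a forkhead factor, fell to 8.11 ± 0.65 FPKM in LATS1/2-dKO cells, against 10.1 ± 0.7 FPKM in WT cells. ARHGEF17, RBMS3, LATS2, ASAP1 and DOCK5 did not pass the test, with changes of 0.60, 0.49, 0.22, 0.12 and 0.08. AXL, NT5E and NUAK2 were below the filter.

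**Figure D1:**
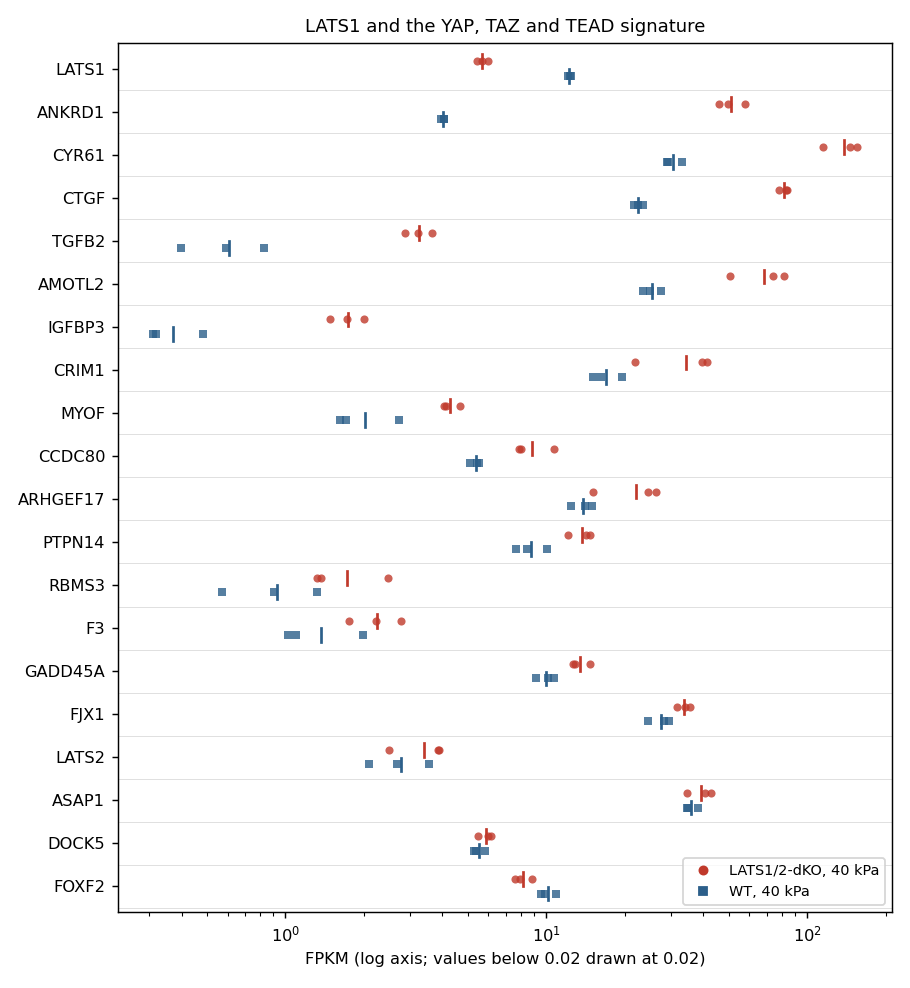
FPKM (log axis) of LATS1 and the 19 tested signature genes in each library on 40 kPa, with LATS1/2-dKO above WT for each gene, a point per library and a bar at the mean of 3. ANKRD1, CYR61, CTGF, TGFB2 and AMOTL2 stand apart between the groups, and LATS2 overlaps.

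The promoters shown are of genes with large changes in this signature and in the Hippo pathway. They were picked because they hold the core motif that TEAD factors recognise, so their matches are no test. CYR61 had no promoter entry and is not shown. Windows run from 250 bases before to 50 bases after the start of the gene, taken from the RefSeq promoter table of build GRCh38.p14. Capitals mark GGAATG on the printed strand or its reverse complement CATTCC, the only letters searched. CTGF (listed as CCN2, chr6:131951323-131951622, minus strand) has matches at -169, -104 and -95 from its start, ANKRD1 (chr10:90921038-90921337, minus strand) at -220 and -128, and TGFB2 (chr1:218345086-218345385, plus strand) at -185. AMOTL2 (chr3:134374398-134374697, minus strand) has a match at -69 in 1 of its 2 windows, and AJUBA (chr14:22976793-22977092, minus strand) at -59 in 1 of its 2 windows.
CTGF: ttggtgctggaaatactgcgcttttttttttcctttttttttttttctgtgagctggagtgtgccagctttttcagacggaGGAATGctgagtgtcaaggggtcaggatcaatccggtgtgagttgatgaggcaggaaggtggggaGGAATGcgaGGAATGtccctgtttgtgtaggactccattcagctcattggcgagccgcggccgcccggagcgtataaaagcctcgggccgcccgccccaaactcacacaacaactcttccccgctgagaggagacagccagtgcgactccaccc
ANKRD1: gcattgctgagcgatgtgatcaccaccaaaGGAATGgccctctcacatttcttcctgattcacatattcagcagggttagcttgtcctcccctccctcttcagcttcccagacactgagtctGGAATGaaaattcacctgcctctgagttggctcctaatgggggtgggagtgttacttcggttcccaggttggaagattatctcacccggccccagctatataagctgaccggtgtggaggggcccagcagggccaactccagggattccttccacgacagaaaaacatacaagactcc
TGFB2: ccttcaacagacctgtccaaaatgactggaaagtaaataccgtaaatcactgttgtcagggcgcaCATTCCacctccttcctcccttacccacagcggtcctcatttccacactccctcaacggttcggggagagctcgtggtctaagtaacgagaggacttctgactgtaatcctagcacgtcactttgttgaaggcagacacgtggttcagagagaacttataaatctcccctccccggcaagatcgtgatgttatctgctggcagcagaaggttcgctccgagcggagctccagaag
AMOTL2: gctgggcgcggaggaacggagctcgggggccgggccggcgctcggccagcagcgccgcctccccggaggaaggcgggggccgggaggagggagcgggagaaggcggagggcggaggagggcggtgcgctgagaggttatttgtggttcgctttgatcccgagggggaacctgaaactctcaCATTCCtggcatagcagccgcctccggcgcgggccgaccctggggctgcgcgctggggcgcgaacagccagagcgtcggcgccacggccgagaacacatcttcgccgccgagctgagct
AJUBA: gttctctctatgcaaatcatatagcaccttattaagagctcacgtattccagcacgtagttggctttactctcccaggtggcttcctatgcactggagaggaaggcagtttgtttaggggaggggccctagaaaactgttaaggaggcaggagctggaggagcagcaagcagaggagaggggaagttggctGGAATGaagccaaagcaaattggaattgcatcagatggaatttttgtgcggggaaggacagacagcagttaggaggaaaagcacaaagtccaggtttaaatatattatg
The motif is short and common: 14% of the 35116 windows in the table hold it. It stands in the window of 7 of the 13 signature genes with an entry (53.8%), in that of 6 of 11 (54.5%) among the 20 genes with the largest rise, and in that of 3 of 13 (23.1%) among the 20 with the largest fall. Among called genes with an entry, 17.9% of those that rose and 14.6% of those that fell hold it, beside 14.8% of all tested genes with an entry. The signature and the 20 largest rises share genes, ANKRD1 and CTGF among them, so their shares are not independent. A match is a description of these letters and not a measured binding site.

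Of 40 tested Hippo pathway genes 13 rose and 4 fell, beside 11.5% and 12.8% of all genes, and the others did not pass the test. The median change was 0.20, and 11 rose and 4 fell without LATS1/2-dKO replicate 1. AJUBA (ENSG00000129474.15, chr14:23440383-23451851), which binds LATS kinases through its LIM domains, had 55.5, 64.6 and 71.7 FPKM in LATS1/2-dKO cells, against 13.8, 16.6 and 16.7 FPKM in WT cells, a rise of 1.96 ± 0.12 (adjusted p = 1.36e-09). Its relative WTIP averaged 10.4 ± 2.0 FPKM in LATS1/2-dKO and 5.05 ± 0.27 FPKM in WT cells. AMOT, the first angiomotin, averaged 6.47 ± 0.92 FPKM in LATS1/2-dKO and 2.69 ± 0.48 FPKM in WT cells, and lies in an X chromosome region in which most genes were higher, described below. WWC2, an upstream scaffold of LATS kinases, averaged 28.0 ± 0.9 FPKM in LATS1/2-dKO and 15.8 ± 1.2 FPKM in WT cells.

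The TEAD factors did not move together. TEAD1 had 31.1, 34.2 and 35.9 FPKM in LATS1/2-dKO cells, against 19.1, 20.5 and 21.7 FPKM in WT cells (change 0.70 ± 0.07, adjusted p = 3.35e-07). TEAD4 averaged 58.5 ± 9.2 FPKM in LATS1/2-dKO and 43.0 ± 1.1 FPKM in WT cells (adjusted p = 0.00572). TEAD2 fell to 16.9 ± 2.0 FPKM in LATS1/2-dKO cells, against 22.04 ± 1.78 FPKM in WT cells (adjusted p = 0.00212), and TEAD3 did not pass the test (adjusted p = 0.472). The large cadherin FAT4 rose by 0.46, and AMOTL1 by 0.37 with overlapping groups. Beside LATS1 and TEAD2, the genes that fell were the kinases MINK1 (change -0.44) and STK4 (-0.27), the last a kinase that acts upstream of LATS. STK38, MAP4K3 and SAV1 rose with all libraries and were not called without LATS1/2-dKO replicate 1 (adjusted p = 0.0901, 0.075 and 0.285). NF2, which encodes merlin, did not pass the test (16.9 ± 1.9 FPKM in LATS1/2-dKO and 15.1 ± 0.4 FPKM in WT cells, adjusted p = 0.0987).

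Cytoskeletal genes that serum response factor (SRF) and its cofactor MRTF are known to regulate rose in part. Of 21 tested 8 were higher and 2 lower, with a median change of 0.16. These were 38.1% and 9.52%, beside 11.5% and 12.8% of all genes. Without LATS1/2-dKO replicate 1, 9 were higher, 1 was lower and the median was 0.32. Tropomyosin 1 (TPM1), which stabilises actin filaments, had 219.7, 178.5 and 206.6 FPKM in LATS1/2-dKO cells, against 49.5, 42.1 and 40.6 FPKM in WT cells, a rise of 2.17 ± 0.10 (adjusted p = 1.41e-11). Calponin 2 (CNN2) had 40.0, 55.1 and 58.3 FPKM in LATS1/2-dKO cells, against 16.5, 15.9 and 19.9 FPKM in WT cells, a rise of 1.49 ± 0.14. Filamin A (FLNA), an actin crosslinker, averaged 425 ± 68.4 FPKM in LATS1/2-dKO and 248 ± 15.4 FPKM in WT cells. The LIM proteins FHL1 and FHL2, caldesmon (CALD1), CNN3 and transgelin (TAGLN) rose by 0.39 to 0.73 on the log2 scale. TAGLN was not called without LATS1/2-dKO replicate 1 (adjusted p = 0.0778). FHL1 lies in an X chromosome window with a median change of 0.52, and FLNA in one with a median of 0.37. Other tropomyosins went the other way: TPM4 fell to 103 ± 12.6 FPKM in LATS1/2-dKO cells, against 134 ± 3.64 FPKM in WT cells, and TPM2 fell by 0.43, a call that was lost without LATS1/2-dKO replicate 1 (adjusted p = 0.0555). TNNC1, which encodes the calcium-binding troponin of slow and cardiac muscle, had 24.4, 22.9 and 25.2 FPKM in LATS1/2-dKO cells, against 1.03, 2.07 and 1.43 FPKM in WT cells, a rise of 3.35 ± 0.13 (adjusted p = 5.18e-13).

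Keratins and caveolae genes were also higher. KRT8 had 536.4, 478.8 and 510.1 FPKM in LATS1/2-dKO cells, against 243.1, 234.9 and 231.5 FPKM in WT cells (change 1.10 ± 0.06, adjusted p = 4.22e-10). Its partner KRT18 averaged 395 ± 23.1 FPKM in LATS1/2-dKO and 234 ± 8.28 FPKM in WT cells, and KRT19 31.3 ± 3.1 and 19.3 ± 1.6 FPKM. Of 8 epithelial markers tested, 5 rose, the others being the tight junction genes MARVELD3 and CLDN7, and RBM47 fell, a call that was lost without LATS1/2-dKO replicate 1 while 5 still rose. The 12 further markers of the list, CDH1 and EPCAM among them, were below the filter. Of those tested 62.5% rose and 12.5% fell, beside 11.5% and 12.8% of all genes. CLDN7 passed the filter only through the LATS1/2-dKO libraries, so a rise was the only direction open to it. The caveolae genes PTRF (cavin 1), CAV1 and CAV2 rose by 0.72, 0.41 and 0.40, and none of the 6 tested fell, with the same counts without LATS1/2-dKO replicate 1. Among annexins and S100 proteins 4 of 13 rose and 4 fell (30.8% each), or 4 and 3 without LATS1/2-dKO replicate 1. S100A10 had 464.3, 455.2 and 437.5 FPKM in LATS1/2-dKO cells, against 234.0, 216.9 and 217.6 FPKM in WT cells. ANXA3 rose by 1.69, and S100A11 fell by 0.35.

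Matrix genes contributed several of the largest rises, from means under 1 FPKM in WT cells. COL3A1, the fibrillar collagen III, had 10.1, 10.3 and 8.48 FPKM in LATS1/2-dKO cells, against 0.38, 0.13 and 0.34 FPKM in WT cells (change 3.05 ± 0.09, adjusted p = 1.89e-14). COL12A1, a collagen that sits on fibrils, had 10.96, 8.21 and 11.1 FPKM in LATS1/2-dKO cells, against 0.68, 0.43 and 0.95 FPKM in WT cells (2.72 ± 0.15). COL5A2 averaged 4.04 ± 1.08 FPKM in LATS1/2-dKO and 0.64 ± 0.10 FPKM in WT cells. The basement membrane chains COL4A5 and COL4A6 rose by 0.66 and 0.73, and both lie in an X chromosome window with a median of 0.57. COL9A3 and COL26A1 rose by 1.62 and 0.81. In all, 7 of 16 tested collagens rose (43.8%, beside 11.5% of all genes) and none of the list fell. The median was 0.29, or 0.65 with 8 higher without LATS1/2-dKO replicate 1. COL3A1, COL12A1 and COL5A2 passed the filter only through the LATS1/2-dKO libraries, so a rise was the only direction open to them. Among the 24 collagens of the list 8 were below the filter. COL14A1, which is not on that list, fell to 3.28, 2.67 and 2.22 FPKM in LATS1/2-dKO cells, against 10.96, 9.80 and 10.1 FPKM in WT cells (-1.61 ± 0.13, adjusted p = 3.92e-08).

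Of 25 matrix glycoproteins 7 rose and 4 fell, or 6 and 3 without LATS1/2-dKO replicate 1. Thrombospondin 1 (THBS1) had 7.10, 5.86 and 6.08 FPKM in LATS1/2-dKO cells, against 0.040, 0.76 and 0.26 FPKM in WT cells (2.47 ± 0.21). The laminin chain LAMB3 averaged 2.51 ± 0.31 FPKM in LATS1/2-dKO and 0.52 ± 0.09 FPKM in WT cells, and fibrillin 2 (FBN2) 30.2 ± 1.1 and 20.2 ± 0.1 FPKM. FSTL1, FN1, LAMC1 and LAMA5 were the other genes that rose, and FBLN1, FBN1, EMILIN2 and LAMA1 fell by 0.26 to 0.51 on the log2 scale. FN1, LAMC1 and EMILIN2 were not called without LATS1/2-dKO replicate 1. THBS1 and LAMB3 passed the filter only through the LATS1/2-dKO libraries, so a rise was the only direction open to them. The proteoglycan lumican (LUM) had 9.02, 8.44 and 7.30 FPKM in LATS1/2-dKO cells, against 1.48, 0.50 and 1.02 FPKM in WT cells (2.24 ± 0.15).

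COL3A1 and LUM are also fibroblast markers. The summed FPKM of 9 fibroblast markers lay between 23.1 and 27.2 in LATS1/2-dKO libraries and between 6.36 and 7.28 in WT libraries, while DCN was listed at 0 in all 6 and COL1A1 averaged 5.99 and 5.07 FPKM. Of the wider list of fibroblast and mesenchymal markers 9 were tested, 3 rose (COL3A1, LUM and ZEB1) and none fell. The rises were 33.3%, beside 11.5% of all genes. The count was also 3 without LATS1/2-dKO replicate 1, when ZEB1 was not called (adjusted p = 0.143) and COL1A1 was (adjusted p = 0.036). Whether other cells had a part in these values was not tested.

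Among adhesion receptors and adaptors 6 of 30 rose and 3 fell, with a median of -0.04. With replicate 1 of LATS1/2-dKO left out, 7 rose, 3 fell and the median was 0.09, beside 9.59% higher and 11.6% lower over all genes. Syndecan 2 (SDC2) had 141.6, 159.2 and 147.5 FPKM in LATS1/2-dKO cells, against 79.9, 78.0 and 75.2 FPKM in WT cells (0.93 ± 0.05). The adaptor tensin 3 (TNS3), the integrin chains ITGA1 and ITGB8, the hyaluronan receptor CD44 and kindlin 2 (FERMT2) rose by 1.06, 1.13, 0.78, 0.68 and 0.55, the last not called without LATS1/2-dKO replicate 1. SDC3, SDC4 and PDLIM5 fell. Most cadherins were low, and of 10 tested CDH3 rose (adjusted p = 0.0676 without LATS1/2-dKO replicate 1) while PCDHB2, PCDHGC3 and PCDH9 fell, and the counts were also 1 and 3 without LATS1/2-dKO replicate 1, with CDH24 called in place of CDH3. With all libraries 10.0% of the cadherin list rose and 30.0% fell, beside 11.5% and 12.8% of all genes. The protocadherin clusters hold near-identical copies that may share fragments.

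Members of the EGF receptor family and genes downstream of the kinase ERK were examined next. ERK output stands here for a list of genes that active ERK is known to induce, among them its own inhibitors of the Sprouty and Spred families and ETS factors of the PEA3 group. NRG1, a ligand of the receptors ERBB3 and ERBB4, had 5.80, 5.204 and 5.17 FPKM in LATS1/2-dKO cells, against 0.041, 0.11 and 0.11 FPKM in WT cells (2.55 ± 0.08, adjusted p = 6.41e-14). The ligand HBEGF, EGFR itself and ERBB4 rose by 0.54, 0.30 and 0.39. Thus 4 of 6 tested members rose (66.7%, beside 11.5% of all genes) and none fell, with ERBB4 near the cutoff (limma adjusted p = 0.049). In the 6 libraries fitted alone, 2 rose and none fell. NRG1 passed the filter only through the LATS1/2-dKO libraries, so a rise was the only direction open to it. Among the 12 genes of the list 6 were below the filter. ERBB2 and ERBB3 did not pass the test (adjusted p = 0.343 and 0.473), though ERBB2 did without LATS1/2-dKO replicate 1 (adjusted p = 0.0341). In the fit that left out LATS1/2-dKO replicate 1, 5 rose and none fell.

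Of 12 tested ERK output genes 9 fell and 1 rose, with a median change of -0.64, beside 12.8% of all genes that fell. Without LATS1/2-dKO replicate 1, 8 fell and 2 rose and the median was -0.57. ETV4, a PEA3 factor, had 1.04, 1.28 and 1.84 FPKM in LATS1/2-dKO cells, against 13.8, 15.7 and 14.9 FPKM in WT cells (-2.74 ± 0.13, adjusted p = 1.36e-11). ETV5 had 1.34, 1.68 and 4.54 FPKM in LATS1/2-dKO cells, against 12.6, 15.4 and 11.3 FPKM in WT cells (-2.10 ± 0.24), and ETV1 averaged 1.30 ± 0.29 and 4.56 ± 0.87 FPKM. All LATS1/2-dKO libraries lay below all WT libraries in these 3 factors.

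SPRY4, a feedback inhibitor of receptor signalling, had 0.15, 0.18 and 0.21 FPKM in LATS1/2-dKO cells, against 3.46, 4.35 and 3.68 FPKM in WT cells (-2.03 ± 0.08, adjusted p = 8.59e-13). SPRY2, SPRED1, SPRED2 and the phosphatase DUSP5 fell by 0.46, 0.73, 0.60 and 0.68, and SPRY1 by 0.22 with a call that was lost without LATS1/2-dKO replicate 1. EPHA2 and CCND1 did not pass the test (adjusted p = 0.242 and 0.853), though EPHA2 did without LATS1/2-dKO replicate 1 (adjusted p = 0.00488). DUSP4, a nuclear phosphatase of ERK, went the other way, at 10.2 ± 1.4 FPKM in LATS1/2-dKO and 5.57 ± 0.17 FPKM in WT cells.

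Immediate-early genes showed no common direction: of 21 tested 3 rose and 5 fell, with a median of 0.01. These were 14.3% and 23.8%, beside 11.5% and 12.8% of all genes. Without LATS1/2-dKO replicate 1, 4 rose and 1 fell. DUSP1, a phosphatase of stress-activated kinases, had 32.4, 44.6 and 40.0 FPKM in LATS1/2-dKO cells, against 14.5, 12.5 and 12.6 FPKM in WT cells (1.48 ± 0.11). The factor ATF3 averaged 48.7 ± 3.6 FPKM in LATS1/2-dKO and 22.8 ± 2.5 FPKM in WT cells, and IER3 11.9 ± 3.9 and 6.19 ± 0.67 FPKM. IER5, KLF6, FOSL1, EGR1 and KLF4 fell by 0.28 to 0.44, and of these IER5 alone was called without LATS1/2-dKO replicate 1.

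The 20 named genes with the largest rise changed by 1.81 to 3.37 on the log2 scale, and 9 of them averaged under 1 FPKM in WT cells. Beside those above, EDIL3, a secreted integrin ligand, had 12.7, 8.87 and 10.0 FPKM in LATS1/2-dKO cells, against 0.16, 0.095 and 0.14 FPKM in WT cells (3.34 ± 0.11). PROK1, a secreted prokineticin, had 9.37, 9.48 and 9.46 FPKM in LATS1/2-dKO cells, against 0.17, 0.38 and 0.15 FPKM in WT cells (3.09 ± 0.09). OLFML1, a secreted olfactomedin protein, averaged 6.78 ± 0.71 FPKM in LATS1/2-dKO and 0.11 ± 0.04 FPKM in WT cells. Matrilin 2 (MATN2) averaged 13.2 ± 1.8 and 1.56 ± 0.18 FPKM, the orphan receptor GPRC5A 33.7 ± 2.0 and 6.14 ± 0.97 FPKM, the actin regulator EPS8L2 10.0 ± 1.5 and 1.72 ± 0.43 FPKM, and the glypican GPC5 10.98 ± 0.95 and 2.16 ± 0.44 FPKM, each in LATS1/2-dKO and then WT cells. The antisense transcript LAMTOR5-AS1 rose by 1.81, a value that may include reads of its partner since the strand setting of the counting is not stated. The pseudogene UPF3BP4, whose copies may share fragments, had 27.1, 4.76 and 3.84 FPKM in LATS1/2-dKO cells, against 0, 2.05 and 0 FPKM in WT cells. Its call rests on LATS1/2-dKO replicate 1 (adjusted p = 0.172 without it), whereas the other 19 were called without that library.

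The 20 largest falls ran from -4.49 to -1.23, and all 20 were called without LATS1/2-dKO replicate 1 and in the 6 libraries alone. EMC10 (chr19), a subunit of the complex that inserts membrane proteins in the endoplasmic reticulum, had 0.082, 0.088 and 0.070 FPKM in LATS1/2-dKO cells, against 23.7, 22.8 and 23.2 FPKM in WT cells (-4.49 ± 0.28, adjusted p = 9.05e-10). PLTP, which transfers phospholipids between lipoproteins, had 0.28, 0.45 and 0.49 FPKM in LATS1/2-dKO cells, against 10.5, 10.5 and 10.7 FPKM in WT cells (-3.04 ± 0.10, adjusted p = 6.41e-14). No LATS1/2-dKO library passed 0.49 FPKM in either gene, and the WT libraries differed little among themselves.

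Several of the others encode secreted proteins or receptors. The hormone subunit CGA had 1.02, 0.64 and 0.55 FPKM in LATS1/2-dKO cells, against 6.599, 9.12 and 7.37 FPKM in WT cells (-2.32 ± 0.16). RAMP1, a partner of the calcitonin receptor-like receptor, averaged 1.25 ± 0.32 FPKM in LATS1/2-dKO and 9.95 ± 0.84 FPKM in WT cells. The hedgehog coreceptor BOC averaged 2.33 ± 0.55 and 11.4 ± 2.2 FPKM, the protease PRSS23 16.1 ± 1.8 and 48.8 ± 2.2 FPKM, SERPINF1 21.3 ± 2.7 and 58.3 ± 4.8 FPKM, and the extracellular peroxidase GPX3 10.1 ± 0.6 and 27.8 ± 1.6 FPKM in LATS1/2-dKO and WT cells. The transcription factor DMRT3 averaged 4.74 ± 0.47 FPKM in LATS1/2-dKO and 22.01 ± 0.71 FPKM in WT cells. TMBIM1, MDGA1, SHISA2, HDAC11, BSCL2, ZNF525 and ZNF542P fell by 1.23 to 1.64.

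**Figure D2:**
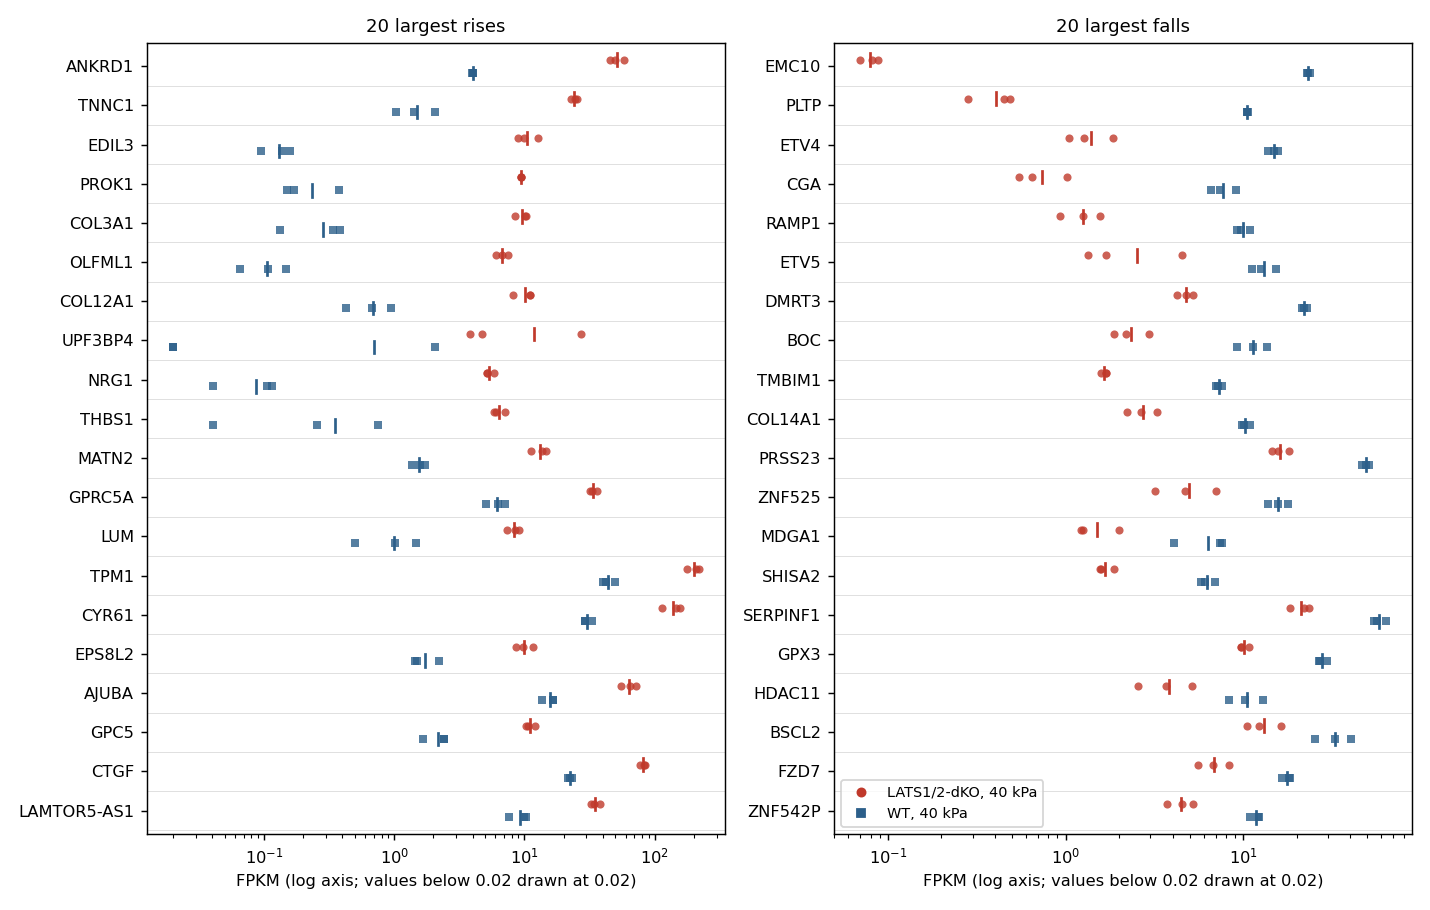
FPKM (log axis) in each library on 40 kPa of the 20 named genes with the largest rise (left) and the 20 with the largest fall (right) in LATS1/2-dKO cells, with LATS1/2-dKO above WT, a point per library and a bar at the mean of 3. The libraries of the groups do not overlap, since the rule for naming asked for this, and UPF3BP4 has the widest spread among the rises.

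Of 14 tested Wnt genes 6 fell and WNT5A rose, with a median change of -0.34 (7 fell without LATS1/2-dKO replicate 1). With all libraries 42.9% fell and 7.14% rose, beside 12.8% and 11.5% of all genes. LGR5, a receptor of R-spondins that strengthens Wnt signalling, had 0.42 FPKM in every LATS1/2-dKO library, against 4.90, 4.68 and 5.10 FPKM in WT cells (-2.05 ± 0.08, adjusted p = 7.88e-13). The Wnt receptor FZD7 had 5.55, 8.33 and 6.77 FPKM in LATS1/2-dKO cells, against 18.5, 16.5 and 18.0 FPKM in WT cells (-1.26 ± 0.10). The nuclear factor LEF1, itself a Wnt target, averaged 25.8 ± 2.0 FPKM in LATS1/2-dKO and 39.4 ± 1.4 FPKM in WT cells. LGR4, WNT5B and the secreted inhibitor family member DKK3 fell by 0.61, 0.71 and 0.51.

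In the TGF-beta and BMP group 3 of 19 rose and 4 fell, with and without LATS1/2-dKO replicate 1. That is 15.8% and 21.1%, beside 11.5% and 12.8% of all genes. BMP4 had 21.2, 28.96 and 25.04 FPKM in LATS1/2-dKO cells, against 6.86, 6.71 and 7.22 FPKM in WT cells (1.71 ± 0.12, adjusted p = 3.66e-09). BMP7 went the other way, at 29.2 ± 4.8 FPKM in LATS1/2-dKO and 48.9 ± 4.8 FPKM in WT cells, in a chromosome 20 window whose median change was -0.26. SMAD6, an inhibitor of BMP signalling, rose by 0.83, and the pseudoreceptor BAMBI, TGFBR3 and CDKN2B fell by 0.32, 0.62 and 0.46. The Notch ligands DLL1 and JAG1 and the target HES1 fell by 1.09, 0.71 and 0.57, and the receptor NOTCH2 rose by 0.32. They were the called members of 14 tested (7.14% higher and 21.4% lower). Without LATS1/2-dKO replicate 1, 2 of the Notch genes rose and 3 fell. JAG1 also lies on chromosome 20, in a window with a median of -0.27.

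Axon guidance genes had 12 of 32 members lower (37.5%, beside 12.8% of all genes) and 4 higher (12.5%, beside 11.5%). Their median was -0.27. Without LATS1/2-dKO replicate 1, 9 were lower and 5 higher and the median was -0.10. SLIT2, a repulsive guidance ligand, averaged 53.4 ± 4.5 FPKM in LATS1/2-dKO and 79.2 ± 2.4 FPKM in WT cells, and its receptor ROBO1 41.1 ± 5.6 and 57.0 ± 2.2 FPKM. The netrin receptors UNC5B and UNC5C fell by 0.74 and 0.73, and the semaphorin receptor NRP1 by 0.55. The ephrin EFNA1 had 13.2, 13.6 and 14.4 FPKM in LATS1/2-dKO cells, against 5.12, 5.47 and 4.93 FPKM in WT cells, and EFNB2, SEMA3D and NTN4 rose too.

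In the kidney lineage list KRT8 and KRT18 rose, and the nephron factor LHX1 fell to 0.49 ± 0.26 FPKM in LATS1/2-dKO cells, against 2.57 ± 0.42 FPKM in WT cells. Of 8 neuronal markers L1CAM and NEFL rose and ENO2 and GAP43 fell, and UCHL1 averaged 770 FPKM in LATS1/2-dKO and 766 FPKM in WT cells (adjusted p = 0.913). Of 31 HOX genes HOXD13 and HOXC10 rose and HOXB13, HOXB2 and HOXC8 fell, a share of calls below that of all genes. The IGF system had IGFBP3, the adaptor IRS1 and IGFBP5 higher among 11 tested, and none lower. Without LATS1/2-dKO replicate 1 the counts higher and lower were 2 and 3 in the neuronal and the HOX lists, and 4 and 0 in the IGF system, and 3 genes of the kidney list were higher.

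Among glycolysis and hypoxia genes 7 of 26 fell and 3 rose, or 6 and 3 without LATS1/2-dKO replicate 1. With all libraries 26.9% fell and 11.5% rose, beside 12.8% and 11.5% of all genes. The glycolytic enzymes GAPDH, TPI1 and PFKM were among those that fell, while ALDOA, PKM, LDHA and PGK1 did not pass the test (adjusted p = 0.117, 0.573, 0.601 and 0.708). GAPDH averaged 1603 ± 108 FPKM in LATS1/2-dKO and 2292 ± 39.2 FPKM in WT cells, TPI1 633 ± 50 and 935 ± 25.6 FPKM, and PFKM 70.2 ± 4.1 and 108 ± 6.6 FPKM. GAPDH, TPI1 and PFKM lie on chromosome 12, and their windows had medians of -0.13 to -0.23. The glucose transporter SLC2A3 rose to 18.4 ± 1.6 FPKM in LATS1/2-dKO cells, against 6.24 ± 0.32 FPKM in WT cells, in a window with a median of -0.23. Cholesterol synthesis had 6 of 23 lower, IDI1 among them at -0.43, and 3 higher: FDFT1 (0.68, in a chromosome 8 window with a median of 0.42), NSDHL (0.32, in an X chromosome window with a median of 0.37) and SC5D (0.54). Leaving out LATS1/2-dKO replicate 1 gave 4 lower and 3 higher.

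Cell cycle genes changed by small amounts. Of 26 genes of G1/S and replication 6 fell (23.1%), beside 12.8% of all genes. SLBP and GINS2 rose (7.69%, beside 11.5% of all genes), and neither rise was called without LATS1/2-dKO replicate 1. In the 6 libraries fitted alone limma called none of the 26, and 6 had an unadjusted p below 0.05. PCNA averaged 236 ± 17.8 FPKM in LATS1/2-dKO and 284 ± 6.2 FPKM in WT cells, and E2F1 28.8 ± 4.0 and 38.6 ± 1.4 FPKM, both on chromosome 20 in windows with medians of -0.28 and -0.29. Of 23 genes of G2/M, CDCA8, AURKA and CDC20 fell, by 0.29, 0.30 and 0.35, and none rose. Their windows had medians of -0.23, -0.26 and -0.25. CDK4 and the CDK inhibitors CDKN2C, CDKN1B, CDKN2B and CDKN1A fell by 0.24 to 0.46. They were 5 of 11 tested (45.5%), and CDKN1A was not called once LATS1/2-dKO replicate 1 was left out. Without that library 5 genes of G1/S, 5 of G2/M and 4 of this list fell, and none of the 3 lists had a rise.

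In the remaining lists calls were few or mixed, to be read beside 11.5% higher and 12.8% lower over all genes. Of 20 p53 targets TP53I3, GADD45A and the death receptor TNFRSF10B rose, the last by 0.77, and BBC3, CDKN1A, SESN2 and the kinase PLK3 fell. PLK3 changed by -0.94, and the other falls were not called without LATS1/2-dKO replicate 1. ATF4 averaged 219 ± 8.6 FPKM in LATS1/2-dKO and 267 ± 2.5 FPKM in WT cells, and of 26 genes of its amino acid response ATF4, DDIT4, PHGDH, PSAT1 and SESN2 fell and SLC3A2 and ALDH1L2 rose. Of 24 genes of the unfolded protein and heat shock responses DNAJC3, CANX and HSPA5 rose and HSPA1A, PDIA4 and HYOU1 fell. HSPA1A had 0.055, 0.044 and 0.070 FPKM in LATS1/2-dKO cells, against 3.51, 2.66 and 3.30 FPKM in WT cells, but it has a near-identical copy and its level is uncertain. Of 22 interferon response genes OAS3, TAP1, B2M, IFITM2 and BST2 rose, and IFITM1 and HLA-B were among those that fell, with HLA-B uncertain for the same reason. Of 32 ribosomal protein genes 8 fell by 0.16 to 0.30 and RPL10 rose by 0.40, and of 30 genes of oxidative phosphorylation ATP5G1, NDUFA9, SDHB, NDUFB8 and ATP5C1 fell and COX5A and NDUFA1 rose. When LATS1/2-dKO replicate 1 was left out the counts higher and lower were 3 and 2 for p53 targets, 1 and 5 for the ATF4 list, 1 and 4 for the unfolded protein list, 2 and 7 for ribosomal proteins and 2 and 5 for oxidative phosphorylation. RPL10 and NDUFA1 lie in X chromosome windows with medians of 0.37 and 0.58.

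**Figure D3:**
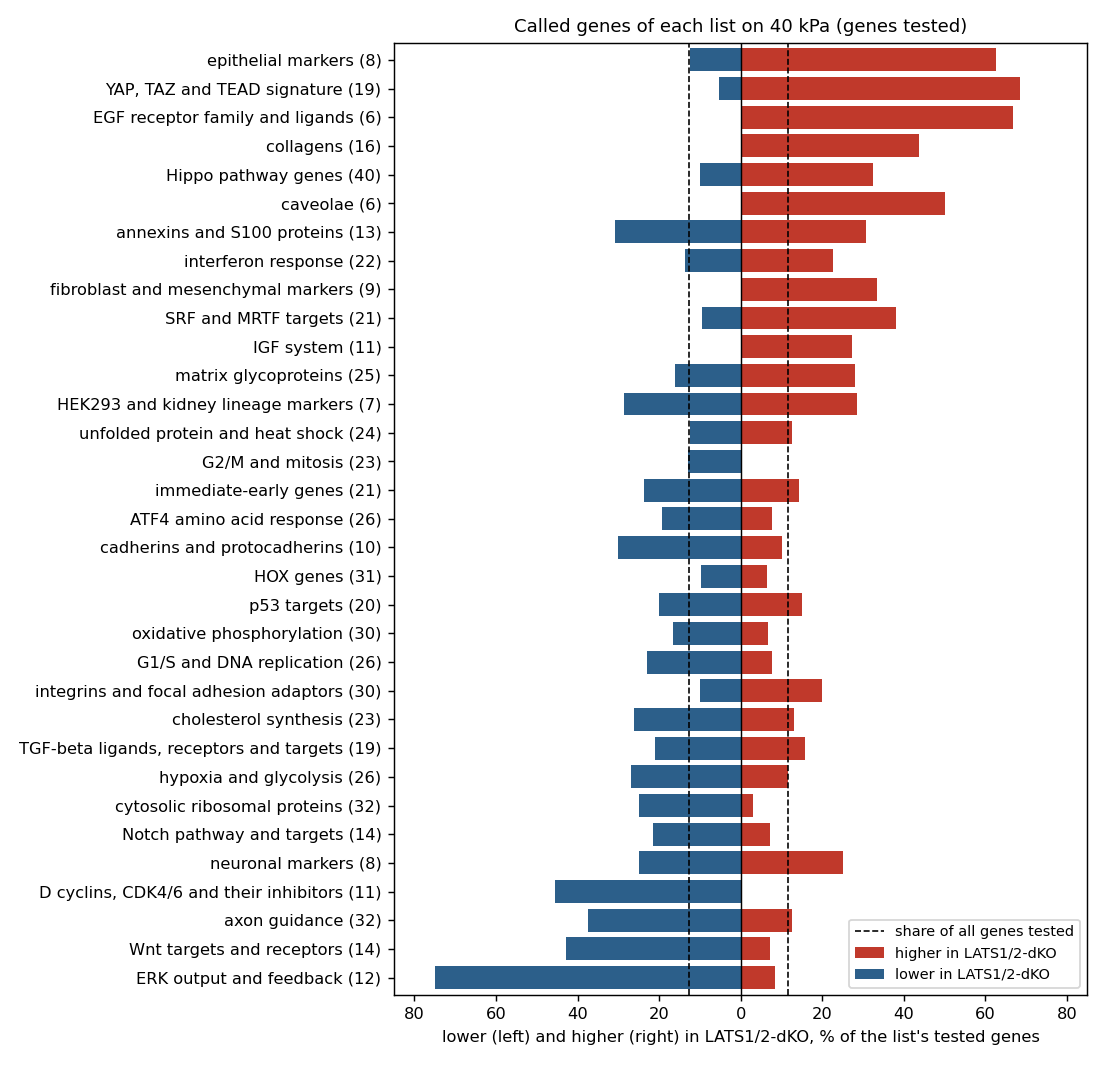
Share of the tested genes of each list that were called lower (to the left) or higher (to the right) in LATS1/2-dKO cells on 40 kPa, in %, for lists with at least 5 genes tested, ordered by median change and with the number tested in brackets. Dashed lines mark the shares over all genes, 12.8% lower and 11.5% higher. The signature, the EGF receptor family and the epithelial markers reach far to the right and ERK output far to the left.

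The same lines on the soft gel gave 12 libraries in all, with no library shared between the stiffnesses. On 1 kPa 3322 genes (23.3%) were called, 1625 (11.4%) higher and 1697 (11.9%) lower. Of these, 2083 were called in the same direction on both gels, which is 60.1% of the calls on 40 kPa and 62.7% of those on 1 kPa. A further 6 were called in opposite directions. Of the 218 genes with a change of 2-fold or more on 40 kPa, 193 (88.5%) were called in the same direction on 1 kPa. Of the 20 largest rises 19 were called there, all but UPF3BP4, and of the 20 largest falls 17, all but ZNF525, HDAC11 and BSCL2.

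The difference between the effect on 40 kPa and that on 1 kPa passed limma's test in 10 genes (0.0702%), with 1327 at an unadjusted p below 0.05. The effect was lower on the stiff gel in 7 genes (0.0491%) and higher in 3 (0.0211%). CTGF averaged 70.7 ± 3.1 FPKM in LATS1/2-dKO and 6.55 ± 0.37 FPKM in WT cells on 1 kPa, and 81.6 ± 3.4 FPKM in LATS1/2-dKO and 22.5 ± 0.9 FPKM in WT cells on 40 kPa. The difference of the log2 changes was -1.44 ± 0.08 (adjusted p = 3.83e-09). ANKRD1 averaged 36.6 ± 2.2 FPKM in LATS1/2-dKO and 0.88 ± 0.24 FPKM in WT cells on 1 kPa, and 51.2 ± 6.3 and 4.02 ± 0.07 FPKM on 40 kPa (-0.96 ± 0.14, adjusted p = 0.00493). AJUBA averaged 67.9 FPKM in LATS1/2-dKO and 6.90 FPKM in WT cells on 1 kPa, and 63.9 and 15.7 FPKM on 40 kPa (-1.17 ± 0.18, adjusted p = 0.00665). In these genes the WT level was higher on the stiff gel, and on the log2 scale of FPKM + 1 the LATS1/2-dKO level changed less.

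KRT18, CYR61, KRT8 and the ankyrin repeat gene ANKRD33B had differences of -0.86, -0.83, -0.64 and -0.40, again with the lower WT mean on 1 kPa. These 7 genes were called without LATS1/2-dKO replicate 1 as well, and in the 12 libraries fitted alone ANKRD1, CYR61 and ANKRD33B were not (adjusted p = 0.126, 0.183 and 0.183). PDE7A, a phosphodiesterase of cyclic AMP, the clone RP11-226L15.5 and TSC22D3, a glucocorticoid-induced gene, had differences of 0.47, 0.60 and 0.63, and none of them was called without that library (adjusted p = 0.0916, 0.0638 and 0.0906). TSC22D3 fell in LATS1/2-dKO cells on both gels, by less on the stiff gel. AMOTL2 had a difference of -1.35 ± 0.27 and MYOF of -0.75 ± 0.16, which did not pass the test (adjusted p = 0.0684 and 0.0902).

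**Figure D4:**
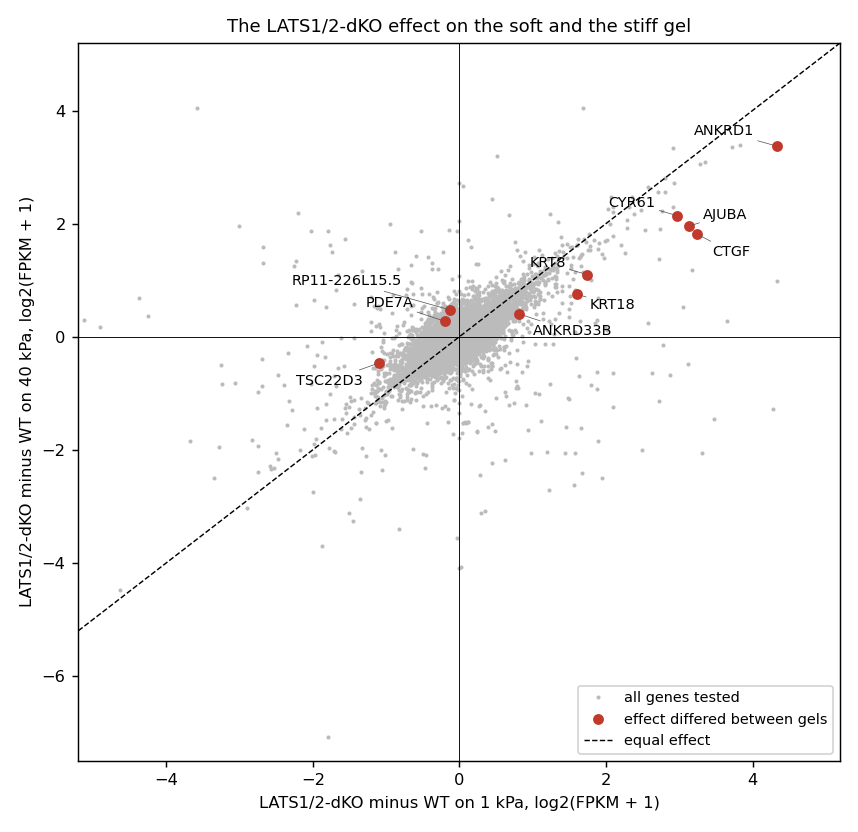
Change in LATS1/2-dKO against WT cells, as a log2 difference of FPKM + 1, on 1 kPa (x axis) and 40 kPa (y axis) for the 14248 genes tested (grey) and the 10 genes whose effect differed between the gels (red). CTGF, AJUBA, ANKRD1, CYR61, KRT8, KRT18 and ANKRD33B lie below the dashed line of equal effect on the side of the rises.

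The other knockout lines on 40 kPa share their WT libraries with this comparison, so values are given side by side and no overlap is counted. CTGF averaged 81.6 FPKM in LATS1/2-dKO, 59.7 FPKM in RAP2-tKO, 0.22 FPKM in YAP/TAZ-dKO and 22.5 FPKM in WT cells. ANKRD1 changed by 3.37 in LATS1/2-dKO, 2.73 in RAP2-tKO and -2.25 in YAP/TAZ-dKO cells, and CYR61 by 2.14, 1.66 and -2.52 in the same order. TPM1 changed by 2.17, 0.76 and -0.23, TNNC1 by 3.35, 0.27 and -0.89, and COL3A1 by 3.05, -0.16 and -0.35. ETV4 changed by -2.74 in LATS1/2-dKO, -0.43 in RAP2-tKO and -3.24 in YAP/TAZ-dKO cells, SPRY4 by -2.03, 0.11 and -1.89, and LGR5 by -2.05, -0.13 and 2.52. EMC10 changed by -4.49, -0.02 and -0.20, and PLTP by -3.04, -0.10 and 0.32. The differences between knockout lines were not tested.

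Some of the smaller changes were grouped along the chromosomes. In 255 windows of 10 Mb (hg19) with at least 20 tested genes, the median log2 change reached 0.25 in size in 24, with 10 windows higher and 14 lower in LATS1/2-dKO cells. Within these windows 51.7% of genes were called, beside 21% in the other windows, and they held 20.3% of all calls and 10.6% of the genes with a change of 2-fold or more. All 24 had a median of the same sign on 1 kPa, and 18 of them also reached 0.25 without LATS1/2-dKO replicate 1.

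The highest medians stood on chr8:1-10000000, at 0.73 with 19 of 22 genes called, and on the X chromosome between 100000001 and 120000000, at 0.57 and 0.58 with 47 of 57 and 25 of 37 genes called. AMOT, COL4A5 and COL4A6 lie in these X chromosome windows. Chromosome 21 as a whole had a median of 0.35 over 148 genes, and chromosome 20 of -0.29 over 388 genes, with 7 of its windows among the 14 lower ones. PLTP, BMP7, JAG1, PCNA, E2F1 and AURKA lie on chromosome 20, and the fall of PLTP, at -3.04, was far past its window's median of -0.31. ANKRD1, CTGF, CYR61, AJUBA, ETV4 and TPM1 lie in windows with medians between -0.10 and 0.08. Against the same WT libraries on 40 kPa, chromosome 20 had a median of -0.043 in RAP2-tKO and -0.215 in YAP/TAZ-dKO cells. Chromosome 21 had 0.041 and 0.131 in the same order. Chromosome 9 was lower in each knockout line, at -0.184 in LATS1/2-dKO, -0.27 in RAP2-tKO and -0.223 in YAP/TAZ-dKO cells. Whether the shared WT libraries had a part in the regional shifts was not tested, and neither was any other cause.

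**Figure D5:**
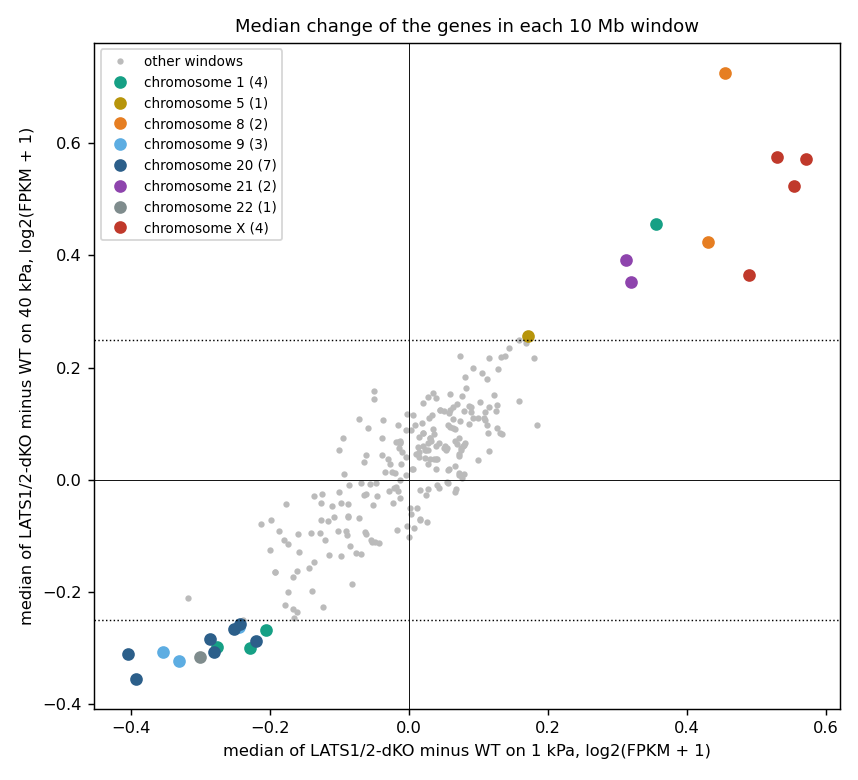
Median change of the tested genes in each 10 Mb window in LATS1/2-dKO against WT cells, as a log2 difference of FPKM + 1, on 1 kPa (x axis) and 40 kPa (y axis). Coloured points are the 24 windows with a median of at least 0.25 in size on 40 kPa (dotted lines), with the number per chromosome in the legend, and all 24 have the same sign on both gels.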

How the data were processed

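Messenger RNA of HEK293A cells was sequenced from stranded poly(A) libraries, per the labels' protocols. Index sets A and B of the kit were used, with no record of which library got which, so no batch could be examined. Per the submitters' processing notes the tools were STAR 2.4.2a and Cufflinks 2.2.1 with build hg19. The deposited tables give FPKM per gene, estimated by the authors and laid out in the columns of a Cufflinks table per the file headers, with 60350 entries each. The annotation release and the treatment of fragments that map to several places are not stated.

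FPKM was summed per gene symbol (58266 symbols, 338 with several entries), and 92 symbols were left out because an entry had no successful estimate. Depth was estimated from the width of the deposited confidence intervals, over 561 to 622 genes per library, and is an underestimate. Counts were not used here, so no count test was run.

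Values of log2(FPKM + 1) were fitted with limma 3.58.1 in R 4.3.3, with an intensity trend, over all 24 libraries and 8 groups (16 residual degrees of freedom). Adjusted p-values are those of Benjamini and Hochberg over the 14248 genes, and a gene was called at an adjusted p below 0.05. Genes under 1 FPKM in every library of 1 group, such as COL3A1, NRG1, SPRY4 and LGR5, passed the filter only through the other group. Their direction was fixed by the filter, and the counts and shares of the lists include them. A change on this scale understates that of low genes. The fit had been tested on simulated data. The series design text calls the 3 samples of a group biological replicates, with no more detail. The p-values of the main fit rest on the spread between such samples, pooled over the 8 groups and not taken from the 6 libraries alone. They do not measure a spread between lines of a genotype. Replicate numbers do not pair the libraries: same-numbered deviations had correlations of -0.056 to 0.053.

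The members and all gene lists were chosen with earlier results of these data known. Named by rule were LATS1, LATS2, the signature and the CCN family, the 20 largest rises and falls whose libraries do not overlap and whose higher group averages at least 5 FPKM (short RNAs and clone names left out), up to 4 called genes per list with the smallest adjusted p, and up to 5 genes per direction for the difference between gels. Every other gene named was chosen after its values were seen, and some genes of the lists are not reported here. Alternatives covered the pseudocount, the filter, scaling, a GC correction, array weights, the libraries in the fit, each library left out and a replicate block. The fit of the 6 libraries without LATS1/2-dKO replicate 1 was added after seeing the data. Tables were handled with Python 3.11.15, pandas 2.3.3 and numpy 2.4.6.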

Additional observations from a re-analysis of the deposited data

Results flagged for a closer look

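The change in LATS1/2-dKO against WT cells was measured on both gels, and the test of the difference between gels (40 kPa minus 1 kPa, limma interaction term) passed for 10 genes. CTGF had a difference of -1.44 ± 0.08 on the log2 scale and AJUBA of -1.17 ± 0.18. ANKRD1 had -0.96 ± 0.14, KRT18 -0.86 ± 0.09, CYR61 -0.83 ± 0.12 and KRT8 -0.64 ± 0.09. ANKRD33B had -0.40 ± 0.06, with means of 9.60 FPKM in LATS1/2-dKO and 7.004 FPKM in WT cells on 40 kPa, and of 10.2 and 5.39 FPKM in the same order on 1 kPa. In all of these 7 genes the rise was smaller on 40 kPa.

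PDE7A had a difference of 0.47 ± 0.08, with means of 13.9 FPKM in LATS1/2-dKO and 16.03 FPKM in WT cells on 1 kPa, and of 16.2 and 13.2 FPKM on 40 kPa. RP11-226L15.5 had a difference of 0.60 ± 0.10, with means of 3.75 and 4.18 FPKM on 1 kPa, and of 4.66 and 3.07 FPKM on 40 kPa. TSC22D3 had a difference of 0.63 ± 0.11, with means of 1.64 FPKM in LATS1/2-dKO and 4.64 FPKM in WT cells on 1 kPa, and of 1.81 and 2.87 FPKM on 40 kPa.

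CTGF, AJUBA and KRT18 passed in all 22 settings tried, ANKRD1, CYR61 and ANKRD33B in 21 and KRT8 in 20. PDE7A, RP11-226L15.5 and TSC22D3 each passed in 9.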

How the results depend on the processing

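On 40 kPa 3468 genes were called, and array weights moved the count to 5721 and a fit of only the 6 libraries to 1426, or 2779 when LATS1/2-dKO replicate 1 was also left out. The other settings kept it within 1.5 times, and leaving out 1 library gave 2627 to 3454. On 1 kPa 3322 genes were called, 5454 with array weights, 5345 without both GC-skewed libraries (LATS1/2-dKO and RAP2-tKO) and 2518 to 2653 leaving out 1 library. The difference between gels moved most: 10 genes were called, 5 in the 12 libraries alone, 17 with a pseudocount of 0.1, 18 without the filter and 18 after scaling, 49 with the GC correction, 243 without both GC-skewed libraries and 324 with array weights. Leaving out 1 library gave 7 to 65 genes, the highest without LATS1/2-dKO replicate 3 on 40 kPa. The cause was not tested. Of 186 named genes tested on 40 kPa, 127 were called in every setting run for them (16 or 17), 45 lost their call in the 6 libraries alone and 6 without LATS1/2-dKO replicate 1. YAP1, which was not called, was the only one to reverse, at -0.07 with array weights. Windows past 0.25 numbered 24, or 21 without LATS1/2-dKO replicate 1, 3 of which were not among the 24, and 34 with windows of 5 Mb. In the 6 libraries alone the calls were 9 higher and 2 lower in the Hippo list, 1 and 7 in ERK output, 5 and 0 among collagens, 4 and 8 in axon guidance and 1 and 1 among ribosomal proteins.

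Numbers alone do not make the samples pairs. A replicate block gave 3356 calls on 40 kPa, 3192 on 1 kPa and 7 for the difference between gels, and with the GC correction as well 4038, 4341 and 29.

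Low genes limit the precision: near 1 FPKM the pseudocount shrinks a change. The deposited confidence intervals did not enter the tests, and no counting error is given per gene here.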
